A study of Mus musculus with 24 samples.

Results

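GW3965, a synthetic agonist of the liver X receptors, was compared directly with acetylated low-density lipoprotein (AcLDL) in bone-marrow-derived macrophages with intact receptors. The comparison rests on 6 of the 24 RNA sequencing libraries of the series: the 3 libraries of LXR-positive macrophages treated with GW3965 and the 3 of LXR-positive macrophages treated with AcLDL, chosen by their labels and paired by replicate number. The labels give libraries of individual mice and 3 mice per genotype, so a number was taken to mark 1 mouse. The GW3965 cells were LXR-positive C57BL/6J macrophages given 1 µM GW3965 for 17 hours from day 5 of culture. The AcLDL cells came from the same 3 mice and received 50 µg/ml AcLDL, for a time the labels do not state; exposure time and agent cannot be told apart. Vehicle cells of these mice, also treated on day 5 for 17 hours, are given beside them as the level without either agent. The same 3 treatments in macrophages of 3 mice labelled DKO, double knockouts of LXRα and LXRβ with C57BL/6J as the labelled strain, were used to ask which differences also appeared in cells labelled DKO. All mice were 8 to 12 weeks old, and all cells were differentiated in medium with fetal bovine serum and L929-conditioned medium, renewed after 4 days. Whether the DKO mice lack the receptors in all cells is not given in the labels.

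Oxysterols, the oxidized derivatives of cholesterol, are the natural ligands of liver X receptors, which sit on DNA in the nucleus and switch on genes that export cholesterol and make fatty acids. SREBP transcription factors work the other way: when membranes of the endoplasmic reticulum hold little cholesterol, the protein SCAP lets them reach the Golgi, be cut and switch on cholesterol synthesis, and when cholesterol is plentiful INSIG proteins hold them back. AcLDL enters macrophages through scavenger receptors and delivers cholesteryl esters to lysosomes, so it can feed both systems, whereas GW3965 is a ligand of the receptors and carries no sterol.

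The values are the authors' normalized counts (reads of a gene scaled by 1 size factor for each library), and differences are log2(GW3965) minus log2(AcLDL) from a limma fit with the mouse as a block, given ± standard error; calls are genes with an adjusted p below 0.05. The libraries held 6448579 to 8793205 reads with GW3965, 8280899 to 8723714 with AcLDL and 10540385 to 17348717 with vehicle (LXR-positive), so low genes are known less well in the pair compared than in vehicle cells. Transcripts of the mitochondrial chromosome took 14.9% to 19.4% of the GW3965 reads and 16.4% to 20.3% of the AcLDL reads. Of the knocked-out genes, Nr1h2 (LXRβ) had 468, 488 and 656 normalized counts in LXR-positive GW3965 cells and 553, 438 and 482 in LXR-positive AcLDL cells, against 290.1, 338 and 398 in DKO GW3965 cells and 298, 279 and 351 in DKO AcLDL cells. Nr1h3 (LXRα) had 128, 159 and 140.0 in LXR-positive GW3965 cells and 140.3, 128 and 153 in LXR-positive AcLDL cells, against 272, 123 and 184 in DKO GW3965 cells and 243, 207 and 217 in DKO AcLDL cells. Reads of Nr1h3 were therefore not fewer in cells labelled DKO; the deleted part of each gene is not stated in the labels, so whole-gene counts do not check the label. The macrophage identity list (11 of 11 genes tested, Adgre1 and Csf1r among them) had a summed level of 278351 to 316058 normalized counts with GW3965 and 236897 to 270713 with AcLDL, and 8 lymphocyte markers summed to at most 396 with GW3965 and 248 with AcLDL.

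GW3965 and AcLDL libraries differed at 413 of 16663 genes tested (2.48%). Of these, 202 were higher with GW3965 (1.21% of genes tested) and 211 were lower (1.27%). All 413 had the same sign in all 3 mice. Selection by a fit paired by mouse favours such genes, so this is no separate support. The median difference was 0.86 among genes called higher and -0.97 among those called lower, and the median over all genes tested was 0.00. Genes of fatty acid and cholesterol synthesis were among those called higher, and genes of lipid droplets and cell division among those called lower. The counts depend on the pairing: without the mouse block 69 genes were higher and 24 lower, all 93 of them among the 413. Leaving out libraries gave 103 higher and 69 lower (without GW3965 1), 96 and 112 (without GW3965 3), 80 and 36 (without AcLDL 1), 263 and 331 (without AcLDL 2) and 81 and 50 (without AcLDL 3). Without mouse 1 there were 62 higher and 21 lower, without mouse 2 there were 247 and 321, and without mouse 3 there were 75 and 71.

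**Figure D1:**
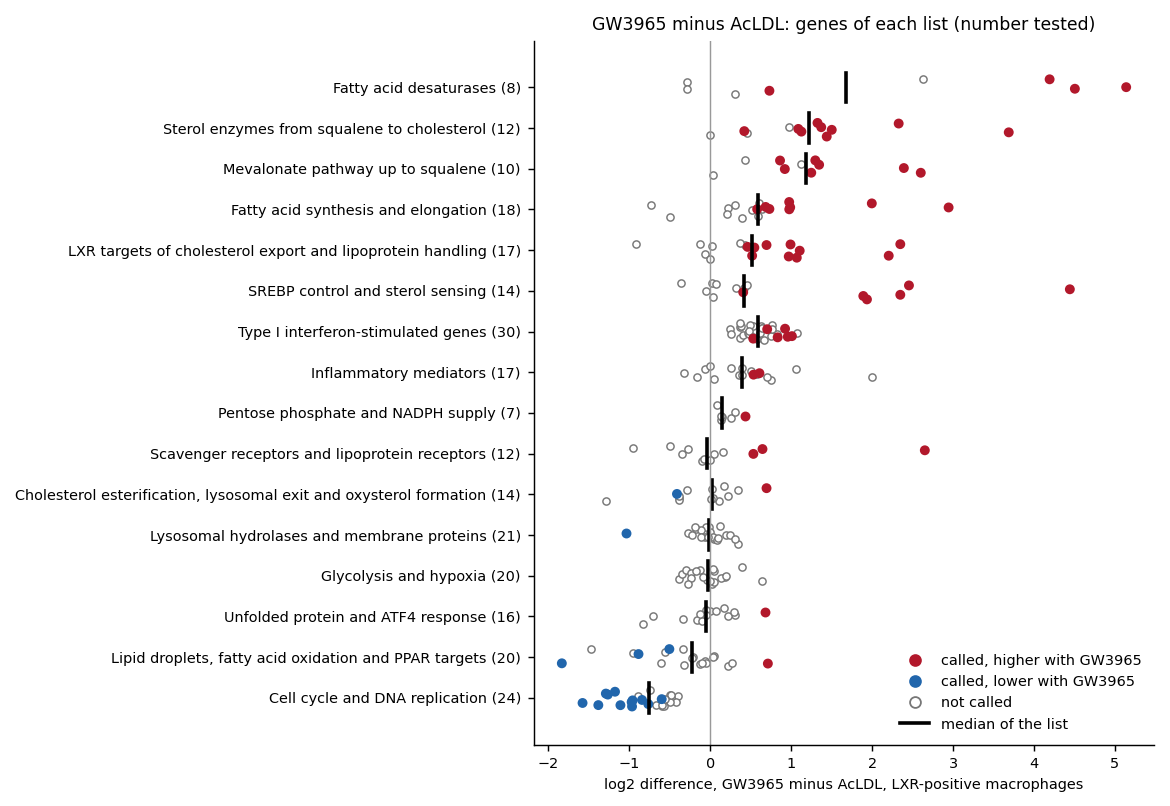
Each point is a gene, placed by its log2 difference between GW3965 and AcLDL in LXR-positive macrophages (horizontal axis) in the row of its list, with the number of genes tested in brackets. Filled points were called, and the black bar is the median of the list; desaturases, sterol enzymes and the mevalonate pathway lie furthest to the right (medians 1.68, 1.23 and 1.18) and, of the lists drawn, cell cycle genes furthest to the left (median -0.75).

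Receptor target genes of cholesterol export and lipoprotein handling were the first group. Of 17 tested, 10 were called and all 10 were higher with GW3965 than with AcLDL. The median was 0.52 over the list against 0.00 over all genes, and the called-higher share over all genes was 1.21%. The list was not uniform: 13 lay above 0 and 4 below, down to -0.92. DESeq2 called 11 higher and 1 lower, and edgeR 10 higher and 0 lower. Abca1 (ENSMUSG00000015243, chromosome 4, 53030787 to 53159895, minus strand), the transporter that loads cholesterol onto apolipoprotein A-I, had 37655, 42061 and 35962 normalized counts with GW3965, 19263, 20609 and 19101 with AcLDL and 9154, 8698 and 8200.1 with vehicle. The groups did not overlap, and every AcLDL library lay between vehicle and GW3965. The difference of 0.97 ± 0.07 (adjusted p = 6.4e-06) is 1.96-fold, and against vehicle Abca1 rose by 2.15 ± 0.07 with GW3965 and by 1.18 ± 0.07 with AcLDL.

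Abcg1 (ENSMUSG00000024030, chromosome 17, 31057698 to 31115777, plus strand), which passes cholesterol to high-density lipoprotein, followed the same order. It had 12493, 13284 and 12038 normalized counts with GW3965, 6295, 6936 and 5819 with AcLDL and 1959, 2005 and 1823 with vehicle, a GW3965 minus AcLDL difference of 0.99 ± 0.09 (adjusted p = 6.2e-05). Mylip (ENSMUSG00000038175, chromosome 13, 45389742 to 45412019, plus strand), a ubiquitin ligase induced by LXR, had 4203, 3729.6 and 4930.1 with GW3965, 2797, 2413 and 2696 with AcLDL and 1357, 1053 and 1295 with vehicle, a difference of 0.70 ± 0.09 (adjusted p = 0.0017). In Abca1, Abcg1 and Mylip alike, AcLDL alone was above vehicle by more than 1 log2 unit and GW3965 was above AcLDL by 0.70 to 0.99. Lpcat3, which places polyunsaturated chains into phospholipids, was 2.15-fold higher with GW3965 (difference 1.10 ± 0.11), and 334 of its exon bases lie opposite Emg1. Apoc2, the cofactor of lipoprotein lipase, was 2.1-fold higher (1.07 ± 0.13; adjusted p = 0.00065, but 0.11 without the mouse block). Mertk, a receptor for apoptotic cells, differed by 0.54 ± 0.09 (adjusted p = 0.0089), a call lost without AcLDL 1, AcLDL 3, mouse 1 or mouse 3 (adjusted p 0.0026 to 0.093 over the left-out libraries and mice). The list had 6 calls without the mouse block, and 6 without AcLDL 1, AcLDL 3, mouse 1 or mouse 3.

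Srebf1 (ENSMUSG00000020538, chromosome 11, 60199089 to 60222581, minus strand) encodes SREBP-1, whose SREBP-1c form is itself a receptor target and drives fatty acid synthesis. It had 1852, 2079.5 and 1811 normalized counts with GW3965, 370.0, 353 and 402 with AcLDL and 293, 252 and 228 with vehicle. All GW3965 libraries lay far above all AcLDL libraries, and the AcLDL libraries lay just above vehicle. The difference was 2.35 ± 0.13 (adjusted p = 5.2e-07), against a rise of 2.89 ± 0.13 over vehicle with GW3965 and of 0.54 ± 0.13 with AcLDL (adjusted p = 0.048). Of its exon bases, 109 overlap Rai1 on the opposite strand.

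Promoter windows of RefSeq (GRCm38.p6, 250 bases before to 50 after a gene's start) were searched on both strands for the half-sites GGTNA and GGTCA with 5 bases between them, the arrangement that LXR and its partner RXR are known to bind. Of 27025 genes with a window, 61 (0.226%) held it. Among genes called higher with GW3965, 4 of 139 with a window did: Abca1, Acsl3, Fasn and Srebf1. Of the genes called lower, 0 of 152 with a window held these letters. The windows of Abca1, Srebf1 (1 of its 3 in the table) and Fasn are shown 5′ to 3′ on the gene's strand because their levels are among those described here in full, with the repeat, which lies on the opposite strand, in capitals.
Abca1 chr4:53159846-53160145, minus strand: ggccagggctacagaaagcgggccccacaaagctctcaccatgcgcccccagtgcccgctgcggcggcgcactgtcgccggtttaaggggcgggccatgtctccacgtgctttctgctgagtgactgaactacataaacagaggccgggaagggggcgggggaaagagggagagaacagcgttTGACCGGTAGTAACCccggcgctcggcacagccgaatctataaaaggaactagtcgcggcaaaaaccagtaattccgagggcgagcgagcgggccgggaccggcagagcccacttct
Srebf1 chr11:60210422-60210721, minus strand: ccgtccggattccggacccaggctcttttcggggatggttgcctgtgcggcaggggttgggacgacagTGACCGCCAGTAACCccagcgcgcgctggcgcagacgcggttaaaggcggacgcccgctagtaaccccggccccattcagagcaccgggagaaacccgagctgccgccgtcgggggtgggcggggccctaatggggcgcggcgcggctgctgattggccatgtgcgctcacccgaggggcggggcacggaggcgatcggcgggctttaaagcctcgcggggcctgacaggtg
Fasn chr11:120824498-120824797, minus strand: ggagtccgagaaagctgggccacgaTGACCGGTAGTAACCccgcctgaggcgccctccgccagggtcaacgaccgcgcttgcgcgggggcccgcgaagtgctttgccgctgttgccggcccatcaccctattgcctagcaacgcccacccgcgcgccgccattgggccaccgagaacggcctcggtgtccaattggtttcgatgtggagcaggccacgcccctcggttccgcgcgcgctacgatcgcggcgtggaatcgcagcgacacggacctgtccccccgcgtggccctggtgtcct
The repeat runs from base -67 to -53 before the Abca1 start, -182 to -168 before this Srebf1 start and -225 to -211 before the Fasn start. A match describes letters and was not tested as a binding site.

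Fatty acid synthesis and desaturation genes followed. Of 18 synthesis and elongation genes tested, 8 were called, all higher with GW3965 (median 0.59); of 8 desaturases 4 were called, all higher (median 1.68). Scd1 (ENSMUSG00000037071, chromosome 19, 44394451 to 44407709, minus strand), which introduces the double bond of oleate and palmitoleate, had 1846, 1982 and 1522 normalized counts with GW3965, 52.6, 62.3 and 36.5 with AcLDL and 25, 10.9 and 12.2 with vehicle. The lowest GW3965 library stood far above the highest AcLDL library, and AcLDL above vehicle, with no overlap between any of the 3 groups. The GW3965 minus AcLDL difference was 5.14 ± 0.29, or 35.2-fold (adjusted p = 5.2e-07).

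Scd2 (ENSMUSG00000025203, chromosome 19, 44293676 to 44306864, plus strand), a second desaturase of the same kind, had 12476, 12882 and 11701 normalized counts with GW3965, 697, 822 and 535 with AcLDL and 238, 245 and 232 with vehicle, a difference of 4.19 ± 0.14 or 18.3-fold (adjusted p = 2.5e-09). Scd genes are close paralogs, and the labels do not say how reads common to them were divided. Fasn (ENSMUSG00000025153, chromosome 11, 120805846 to 120824547, minus strand), the fatty acid synthase, had 2186, 2306 and 2243 with GW3965, 257, 280.5 and 340.3 with AcLDL and 278, 251 and 407 with vehicle. Here AcLDL and vehicle overlapped and GW3965 stood apart from both: the difference from AcLDL was 2.95 ± 0.18 (adjusted p = 1.1e-06), and AcLDL minus vehicle was -0.07 ± 0.18 (adjusted p = 0.89).

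Fads2, the delta-6 desaturase of polyunsaturated fatty acids, had 189, 184 and 183 normalized counts with GW3965, 11.2, 7.42 and 4.38 with AcLDL and 14.3, 14 and 14.7 with vehicle, a difference of 4.50 ± 0.32 (adjusted p = 4.0e-06). All 3 AcLDL libraries were below all 3 vehicle libraries, a difference of -0.90 ± 0.32 that was not called (adjusted p = 0.17). Fads1, the delta-5 desaturase, differed by 0.73 ± 0.09. Acaca, which makes malonyl-CoA for the synthase, differed by 0.99 ± 0.11, and Elovl5, an elongase, by 0.73 ± 0.11 (lost without mouse 1; adjusted p 0.0044 to 0.075 over the left-out libraries and mice). The acyl-CoA synthetases Acsl3 and Acsl4 were 3.99-fold and 1.97-fold higher; Acsl3 shares 244 exon bases on its own strand with Utp14b. Mid1ip1, an activator of acetyl-CoA carboxylase, differed by 0.98 ± 0.11, with 543 exon bases opposite Gm14493. Without mouse 1 the synthesis list had 5 calls.

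**Figure D2:**
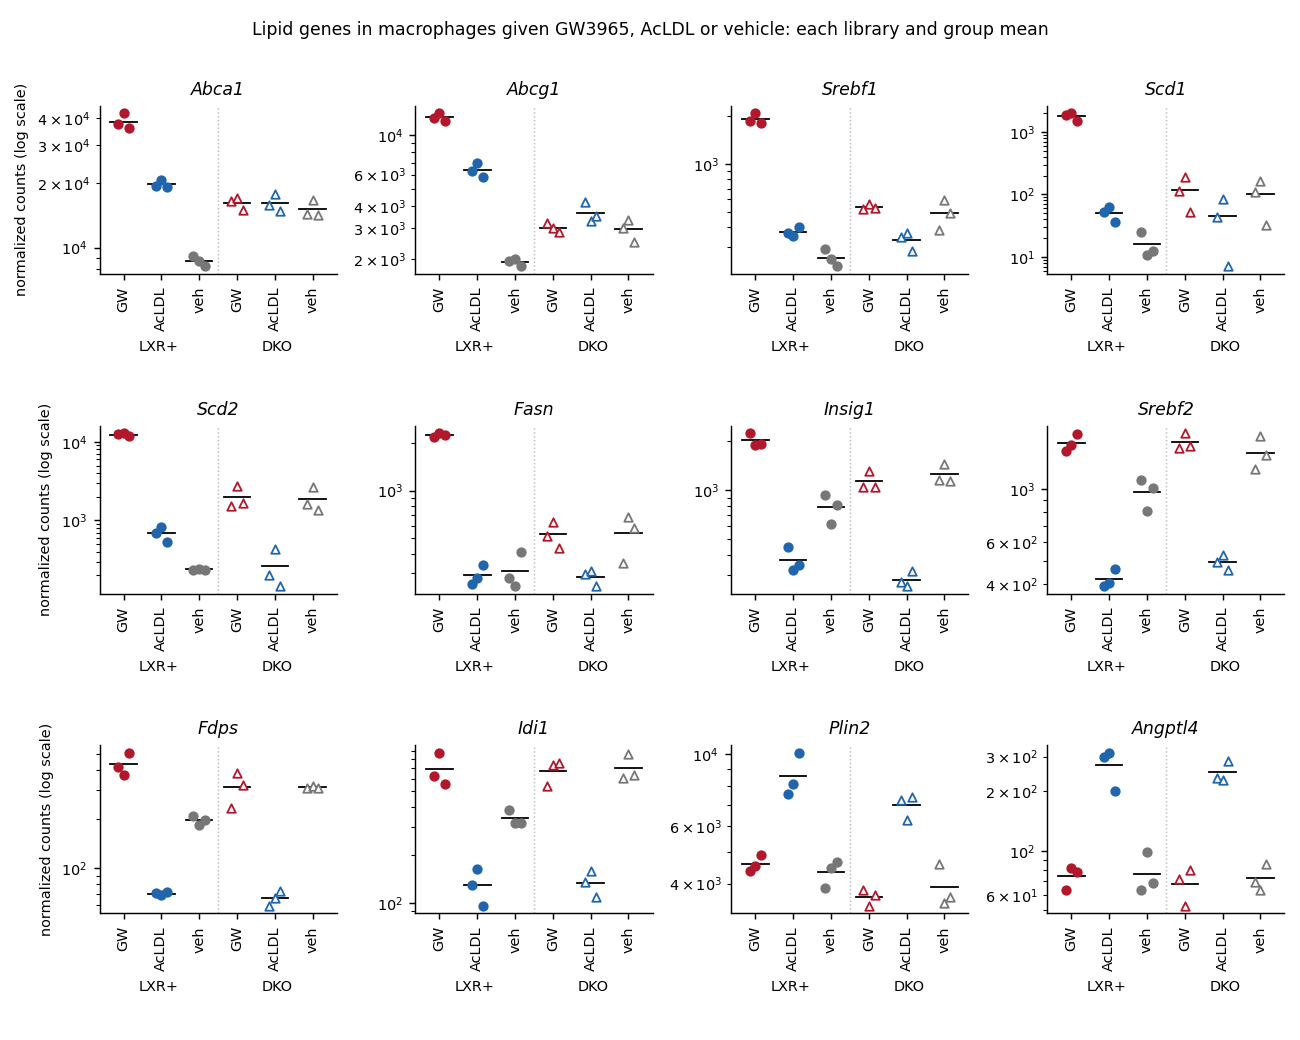
Each panel is a gene, with normalized counts on a log axis and the 6 groups along the horizontal axis (filled circles LXR-positive, open triangles DKO; black line, group mean). In LXR-positive cells Abca1, Abcg1 and Scd2 step down over GW3965, AcLDL and vehicle, Fasn is high with GW3965 only among these 3 groups, Insig1, Srebf2, Fdps and Idi1 are lowest with AcLDL in both genotypes, and Plin2 and Angptl4 are highest with AcLDL in both genotypes.

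Genes of SREBP control and sterol sensing formed the next group. Of 14 tested, 6 were called, all higher with GW3965 than with AcLDL (median 0.41).

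Insig1 (ENSMUSG00000045294, chromosome 5, 28071363 to 28078662, plus strand), the protein that retains SCAP and is itself an SREBP target, had 2247, 1908 and 1934 normalized counts with GW3965, 447, 322 and 348 with AcLDL and 934, 619 and 813 with vehicle, a difference of 2.45 ± 0.12 or 5.48-fold. Srebf2, which encodes the SREBP of the cholesterol pathway, had 1439.6, 1529 and 1705 with GW3965, 392, 405 and 460.1 with AcLDL and 1094, 812 and 1010.5 with vehicle, a difference of 1.89 ± 0.10 (adjusted p = 4.8e-07). In both genes the order was GW3965, vehicle, AcLDL with no overlap between groups. Stard4, a carrier of sterol between membranes, differed by 1.94 ± 0.17, and Rnf145, a ligase of the sterol response, by 0.41 ± 0.09 (adjusted p = 0.024, but 0.24 without the mouse block; lost without GW3965 1, GW3965 3, AcLDL 1, AcLDL 3, mouse 1 or mouse 3, adjusted p 0.023 to 0.2 over the left-out libraries and mice). Rnf145 was above vehicle under both agents, by 0.91 ± 0.09 with GW3965 and 0.51 ± 0.09 with AcLDL.

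Most enzymes that build cholesterol were called higher with GW3965. Of 22 enzymes tested, all 22 had a positive difference and 16 were called higher, with a median of 1.19: 7 of 10 from acetyl-CoA to squalene (median 1.18) and 9 of 12 from squalene to cholesterol (median 1.23). Fdps, which makes farnesyl diphosphate, had 419, 372 and 508 normalized counts with GW3965, 70.2, 68.3 and 71.6 with AcLDL and 208, 185 and 197 with vehicle, a difference of 2.60 ± 0.14 (adjusted p = 4.8e-07). The GW3965 libraries stood above vehicle and the AcLDL libraries below it.

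Smaller differences were seen along the rest of the pathway. Hmgcs1, which makes HMG-CoA, was 2.37-fold higher with GW3965, Idi1, the isomerase of the isoprene unit, 5.25-fold, Mvd, the decarboxylase before it, 2.54-fold and Fdft1, squalene synthase, 2.46-fold. For Fdft1, 774 exon bases lie opposite Ctsb, a gene with a far higher mean level of 100996 normalized counts over these libraries. Among the sterol enzymes Cyp51 was 5.02-fold, Sc5d 2.83-fold, Lss 2.71-fold, Sqle 2.59-fold and Msmo1 2.5-fold higher; 166 exon bases of Cyp51 lie opposite Akap9. The call of Lss was lost without mouse 3 (adjusted p 0.00097 to 0.067 over the left-out libraries and mice). The sterol list had 5 calls without mouse 3.

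Of these 22 enzymes, 17 had a promoter window in the RefSeq table. The NF-Y box CCAAT, read on both strands, stood in 16 of the 17 windows, against 41.1% of all 27025 genes. It was also common in the cell cycle list, whose genes lay on the other side of 0, with 19 of 21 windows, and it stood in 53.2% of the windows of genes called higher and 53.3% of those called lower. The element TCACNCCAC, known as a sterol regulatory element, was in 1 of the 17, that of Hmgcs1, against 1.44% of all genes. The Hmgcs1 window is shown because it is the only enzyme window of the 17 with this element, shown in capitals (base -137 to -129, gene strand).
Hmgcs1 chr13:119690101-119690400, plus strand: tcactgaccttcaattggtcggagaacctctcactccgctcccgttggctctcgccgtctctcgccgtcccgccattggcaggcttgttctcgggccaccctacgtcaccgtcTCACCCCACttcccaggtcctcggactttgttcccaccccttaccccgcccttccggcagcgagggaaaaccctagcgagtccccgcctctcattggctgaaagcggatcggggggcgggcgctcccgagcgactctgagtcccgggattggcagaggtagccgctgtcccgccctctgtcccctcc

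Set beside vehicle, the called cholesterol enzymes were higher with GW3965 and lower with AcLDL. With GW3965, 5 of the 22 were called higher than vehicle (background 0.498% higher and 0.132% lower of genes tested; list median 0.61). With AcLDL, 9 of the 22 were called lower than vehicle (background 1.03% higher and 1.67% lower; list median -0.49). Receptor targets called against vehicle were higher with both: 11 of 17 with GW3965 (median 1.14) and 8 of 17 with AcLDL (median 0.54). Both comparisons use the same 3 vehicle libraries, so they are given side by side without an overlap. Over all genes, GW3965 against vehicle gave 105 calls and AcLDL against vehicle 451; without vehicle 1 these were 61 and 129, without GW3965 1 the first was 63, and the second was 181 without AcLDL 1, 147 without AcLDL 3 and 250 without vehicle 3. Without mouse 1 they were 53 and 80, without mouse 2 the first was 67, and without mouse 3 the second was 144. Without the mouse block they were 59 and 56.

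**Figure D3:**
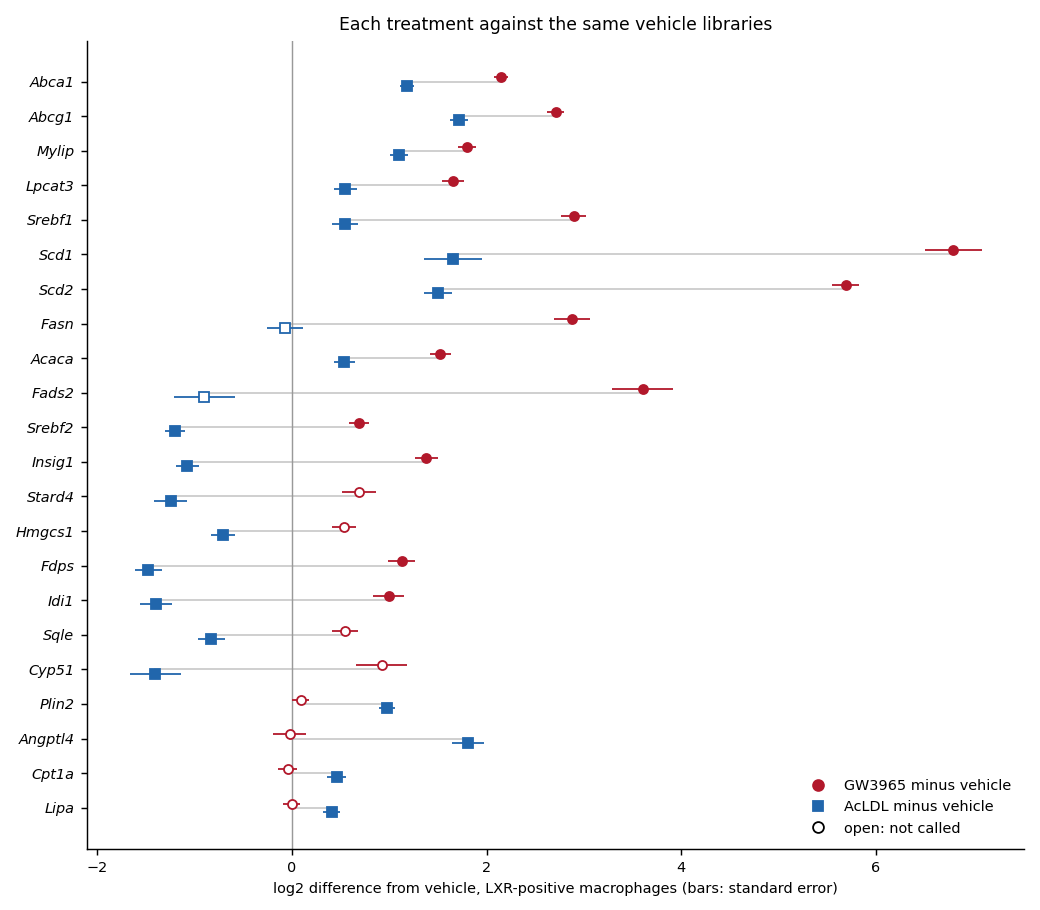
Log2 differences from vehicle in LXR-positive macrophages, with standard errors, for GW3965 (circles) and AcLDL (squares); filled symbols were called, and the grey line joining the symbols of a gene is the direct difference. Abca1, Abcg1, Mylip, Lpcat3, Srebf1, Scd1, Scd2 and Acaca lie right of 0 under both agents, Srebf2 and Insig1 lie on opposite sides (Insig1 at 1.38 and -1.08), and Plin2, Angptl4, Cpt1a and Lipa were called with AcLDL and not with GW3965.

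Lipid droplet and PPAR target genes ran the other way. Of 20 tested, 3 were called lower with GW3965 than with AcLDL and 1 higher (median -0.22). Plin2 (ENSMUSG00000028494, chromosome 4, 86648386 to 86670060, minus strand), the coat protein of lipid droplets, had 4368, 4544 and 4901 normalized counts with GW3965, 7526, 8091 and 10096 with AcLDL and 3893, 4480.4 and 4657 with vehicle. GW3965 and vehicle overlapped and every AcLDL library was above both. The difference was -0.89 ± 0.08, or 1.85-fold lower with GW3965 (adjusted p = 7.5e-05).

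Angptl4 (ENSMUSG00000002289, chromosome 17, 33773750 to 33781575, minus strand), an inhibitor of lipoprotein lipase and a PPAR target, had 63, 82 and 78.1 with GW3965, 298, 313 and 202 with AcLDL and 63.1, 98.8 and 68.4 with vehicle, a difference of -1.83 ± 0.17 (adjusted p = 6.2e-05). Again GW3965 and vehicle overlapped and AcLDL stood above both. Cpt1a, which admits fatty acids to mitochondria, differed by -0.51 ± 0.10 (adjusted p = 0.015; adjusted p 0.17 without the mouse block, and lost without GW3965 1, GW3965 2, AcLDL 1, AcLDL 2, mouse 1 or mouse 2, adjusted p 0.012 to 0.15 over the left-out libraries and mice). The called gene on the other side was Fabp5, a fatty acid carrier, at 0.71 ± 0.09 (adjusted p 0.15 without the mouse block), with GW3965 and AcLDL libraries overlapping across mice but higher with GW3965 in each mouse.

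Genes of cholesterol storage and lysosomal exit were mostly not called: of 14 tested, 1 was higher and 1 lower. Lipa, the lysosomal lipase that frees cholesterol from its esters, had 13577, 14564 and 13666 normalized counts with GW3965, 18982, 16933 and 19783 with AcLDL and 13496, 13711 and 14753 with vehicle. AcLDL libraries were the highest of the 3 groups, and the difference was -0.41 ± 0.09 (adjusted p = 0.026). Gramd1b, which carries plasma membrane cholesterol to the endoplasmic reticulum and is a receptor target, had 4170.4, 3325 and 4171 with GW3965, 2405, 2331 and 2429 with AcLDL and 1519, 1413 and 1531 with vehicle, a difference of 0.70 ± 0.12 (adjusted p = 0.011). Both calls were lost without the mouse block (adjusted p 0.056 for Lipa and 0.098 for Gramd1b) and without GW3965 1, GW3965 3, AcLDL 1, AcLDL 3, mouse 1 or mouse 3 (adjusted p 0.018 to 0.21 and 0.012 to 0.13 over the left-out libraries and mice). Among 21 lysosomal genes, Ctsl, a protease, was called lower with GW3965 at -1.04 ± 0.19 (adjusted p 0.15 without the mouse block; lost without GW3965 3, AcLDL 1, AcLDL 3, mouse 1 or mouse 3, adjusted p 5.9e-05 to 0.096).

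Scavenger and lipoprotein receptors gave 3 calls among 12 tested, all higher with GW3965. The list as a whole was split, with 6 above 0 and 6 below (median -0.04, lowest -0.96). DESeq2 called 3 higher and 2 lower, and edgeR 3 higher and 0 lower. Marco, a scavenger receptor that binds AcLDL, had 61, 80.2 and 169 normalized counts with GW3965, 7.97, 14.8 and 23.4 with AcLDL and 65.4, 84.1 and 194 with vehicle. Mouse 3 was the highest in each group, and GW3965 and vehicle overlapped while AcLDL lay below both. The difference was 2.65 ± 0.30, or 6.28-fold (adjusted p = 0.00041; adjusted p 0.22 without the mouse block). Cxcl16, a scavenger receptor for oxidized lipoprotein and a chemokine, had 3804, 3977 and 4183 with GW3965 and 2829, 2779.6 and 2658 with AcLDL, a difference of 0.53 ± 0.08, with 552 exon bases opposite Zmynd15. Scarb1, the receptor for high-density lipoprotein, differed by 0.65 ± 0.12 (adjusted p 0.063 without the mouse block; lost without GW3965 1, GW3965 2, AcLDL 1, mouse 1 or mouse 2, adjusted p 0.011 to 0.13). Without the mouse block 1 call was left in this list. Among 14 genes of apoptotic cell uptake, Itgav, an integrin subunit, was lower with GW3965 at -0.90 ± 0.17 (adjusted p 0.074 without the mouse block; lost without GW3965 1, GW3965 3, AcLDL 1, AcLDL 3, mouse 1 or mouse 3, adjusted p 0.0042 to 0.15), and 634 of its exon bases lie opposite Gm13684.

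Type I interferon-stimulated genes, the antiviral program downstream of the interferon receptor, all lay above 0: 30 of 30 differences were positive (median 0.59), and 6 were called higher with GW3965. Ifit3, an antiviral protein, had 943, 909 and 1304 normalized counts with GW3965, 563, 635 and 383 with AcLDL and 1834, 1855 and 1653 with vehicle. AcLDL was lowest, vehicle highest, and no groups overlapped. The difference was 1.01 ± 0.18 (adjusted p = 0.0093), that of Ifit2 0.92 ± 0.14 and that of Mx1 0.96 ± 0.17; Ifit genes are close paralogs. The other 3 called were Irf7 (0.83, with 45 exon bases opposite Phrf1), Ddx58 (0.53) and Zbp1 (0.70). Against vehicle, 24 of 30 were called lower with AcLDL (median -0.95), and with GW3965 none was called by limma, 30 of 30 lying below 0 (median -0.41), with 16 under an unadjusted p of 0.05, 0 called by edgeR and 3 by DESeq2. These calls depend on single libraries and on the pairing: without the mouse block none was called (25 genes of the list were under an unadjusted p of 0.05 in the blocked fit, edgeR called 3 and DESeq2 14), and the count was 3 without GW3965 1, 3 without GW3965 2, 2 without GW3965 3, 2 without AcLDL 1, 19 without AcLDL 2, 1 without AcLDL 3, 12 without vehicle 2, 0 without mouse 1, 15 without mouse 2 and 1 without mouse 3. The summed level of the list was 30305, 32157 and 31922 in the GW3965 libraries, against 20574, 26417 and 17588 in the AcLDL libraries.

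The RefSeq window of Ifit3 is shown because it holds 2 copies of GAAA repeated with 2 bases between, the core of the interferon-stimulated response element, in capitals on the opposite strand (base -156 to -147 and -122 to -113). A window of all genes held such a repeat in 3.99% of cases, and 13 of 139 windows of genes called higher did (9.35%).
Ifit3 chr19:34583279-34583578, plus strand: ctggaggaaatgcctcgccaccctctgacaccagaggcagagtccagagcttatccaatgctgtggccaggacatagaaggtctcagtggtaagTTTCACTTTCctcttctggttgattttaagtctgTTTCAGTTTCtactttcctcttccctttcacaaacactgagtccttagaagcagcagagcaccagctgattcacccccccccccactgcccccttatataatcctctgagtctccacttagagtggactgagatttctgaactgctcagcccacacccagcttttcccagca

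Of 17 inflammatory mediators tested, 2 were called higher with GW3965 (median 0.40): Tlr2, a receptor for bacterial lipopeptides, at 0.61 ± 0.14, and Nlrp3, the inflammasome sensor, at 0.53 ± 0.12. Neither call held without the mouse block (adjusted p 0.33 and 0.33), and edgeR called neither. Both were also lost in most left-out settings (adjusted p 0.0049 to 0.2 and 0.022 to 0.19): without GW3965 2, GW3965 3, AcLDL 1, AcLDL 3, mouse 1 or mouse 3 for both, and also without GW3965 1 for Tlr2 and without AcLDL 2, vehicle 3 or mouse 2 for Nlrp3.

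The called cell division genes were all lower with GW3965 than with AcLDL. All 24 tested lay below 0 (median -0.75), and 12 were called lower. Pcna, the sliding clamp of DNA replication, had 1281, 2085 and 1668 normalized counts with GW3965, 2955, 3321 and 3390.2 with AcLDL and 1372, 2042 and 1651 with vehicle. GW3965 and vehicle overlapped and AcLDL was above both, a difference of -0.97 ± 0.12 (adjusted p = 0.0012). Cdk1, the kinase of mitotic entry, had 87.4, 203 and 50.1 with GW3965, 183, 377 and 96.4 with AcLDL and 142, 274 and 67.2 with vehicle. Mouse 2 was highest and mouse 3 lowest in each of these groups, so the groups overlap although every mouse was lower with GW3965; the difference was -0.96 ± 0.11 (adjusted p = 0.00032). Mcm7, a subunit of the replicative helicase, differed by -0.84 ± 0.11, Bub1, a spindle checkpoint kinase, by -1.11 ± 0.16, and Kif11, a spindle motor, by -1.29 ± 0.21; Mcm7 has 64 exon bases opposite Cops6 and 321 opposite Ap4m1.

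These calls rest on the pairing: without the mouse block none of the 24 was called by limma (in the blocked fit 21 were under an unadjusted p of 0.05, edgeR called 12 and DESeq2 17). The count was 6 without GW3965 1, 5 without AcLDL 1, 5 without AcLDL 3, 4 without mouse 1 and 6 without mouse 3. Against vehicle, 8 of 24 were called higher with AcLDL (median 0.66) and none was called with GW3965 (median -0.16; 4 under an unadjusted p of 0.05 and 0 called by edgeR or DESeq2). The summed level of the list was 6757, 16769.8 and 6383 normalized counts in the GW3965 libraries of mice 1, 2 and 3, against 15191, 22870.3 and 10459.9 in their AcLDL libraries.

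**Figure D4:**
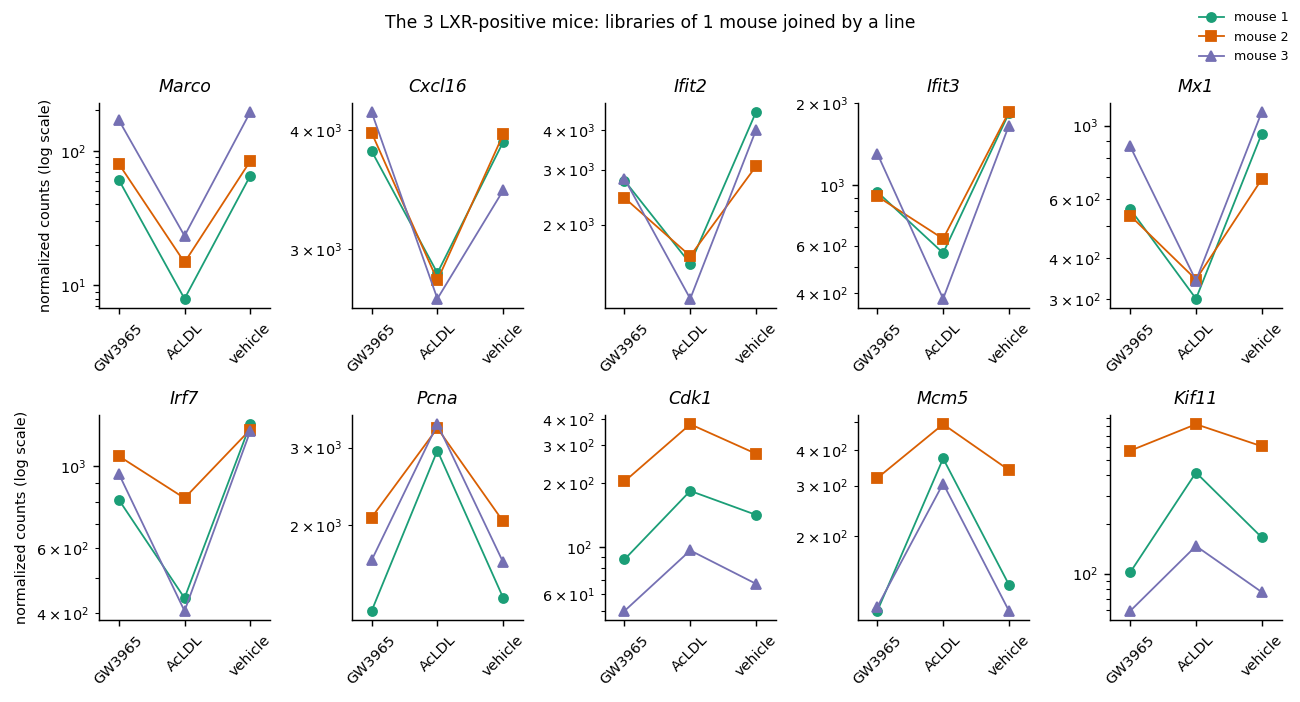
Normalized counts (log axis) of 10 genes in the 3 LXR-positive mice, each mouse joined over GW3965, AcLDL and vehicle. AcLDL is the lowest point of each line for Marco, Cxcl16, Ifit2, Ifit3, Mx1 and Irf7 and the highest for Pcna, Cdk1, Mcm5 and Kif11, and the lines of Cdk1 and Kif11 lie further apart between mice than between treatments.

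Of the 413 called genes, 332 lie in none of the 27 lists used. Among these, the largest differences on the higher side included Fpr1 and Fpr2, receptors for formylated peptides that guide phagocytes. Fpr1 had 77.3, 162 and 143 normalized counts with GW3965, 20.7, 47.5 and 32.1 with AcLDL and 105, 97.3 and 160.1 with vehicle, a difference of 1.91 ± 0.25 (adjusted p = 0.0015). Fpr2 differed by 1.82 ± 0.30 (lost without GW3965 1, AcLDL 1 or mouse 1, adjusted p 0.0026 to 0.11); both are close paralogs. Acod1, which makes itaconate, had 242, 121 and 358 with GW3965, 57.4, 35.6 and 93.5 with AcLDL and 261, 119 and 490.0 with vehicle, a difference of 1.91 ± 0.21 (adjusted p 0.18 without the mouse block). In Fpr1, Fpr2 and Acod1 the GW3965 and vehicle libraries overlapped and AcLDL lay below both.

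A different order was seen in Cd38, Lbp and Utp14b, in which GW3965 stood above both other groups. Cd38, an NAD-consuming ectoenzyme, had 199, 194 and 221 normalized counts with GW3965, 67, 66.8 and 77.4 with AcLDL and 36.9, 42.8 and 51.3 with vehicle, a difference of 1.53 ± 0.18 (adjusted p = 0.00071). Lbp, which binds lipopolysaccharide, had 161, 99.8 and 112 with GW3965, 39.9, 40.1 and 24.8 with AcLDL and 28.6, 23.3 and 25.7 with vehicle, a difference of 1.80 ± 0.24 (adjusted p = 0.0016). Utp14b, related to a ribosome assembly factor, differed by 1.67 ± 0.15, but shares exon bases with Acsl3, as given above. Siglece, a sialic acid receptor of myeloid cells, differed by 1.66 ± 0.25 (lost without mouse 3, adjusted p 0.00069 to 0.055; adjusted p 0.056 without the mouse block). Aldoc at 2.03 ± 0.37, Cd55 at 1.52 ± 0.25 and H2-Q6, which has close paralogs and was 2.83-fold higher, completed the 10 largest, and none of these 3 kept its call without the mouse block (adjusted p 0.07, 0.25 and 0.24) or without mouse 1 or mouse 3; Aldoc was also lost without GW3965 1, GW3965 3, AcLDL 1 or AcLDL 3, and Cd55 without AcLDL 1 or AcLDL 3 (adjusted p 0.0019 to 0.13 for Aldoc, 0.0021 to 0.087 for Cd55 and 0.00025 to 0.077 for H2-Q6).

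On the lower side, the clearest was Slc24a3, a sodium/calcium/potassium exchanger, with 16.3, 24.9 and 26.5 normalized counts with GW3965, 68.6, 90.5 and 81.8 with AcLDL and 15.5, 30.4 and 24.4 with vehicle. Every AcLDL library was above every library of the other two groups, and the difference was -1.81 ± 0.25, or 3.5-fold lower with GW3965 (adjusted p = 0.0023). Pcdh7, a protocadherin, had 239.9, 506 and 287 with GW3965, 915, 1052 and 1344 with AcLDL and 408, 969.7 and 389.8 with vehicle, a difference of -1.73 ± 0.26 (lost without mouse 1, adjusted p 0.00038 to 0.07; adjusted p 0.084 without the mouse block), with 2235 exon bases opposite 4932441J04Rik. The other 8 of the 10 largest were Nptx1 (-2.80), Serpinb6b (-2.08), Lama3 (-1.80), Rad51ap1 (-1.65), Tox2 (-1.65), Fancd2 (-1.62), Ccnd1 (-1.59) and Dusp5 (-1.54). Rad51ap1 and Fancd2 act in DNA repair and Ccnd1 encodes cyclin D1, with 1100 exon bases opposite Oraov1. All 8 lost their call without the mouse block and in at least 5 settings with a library or mouse left out, each of them without AcLDL 1, AcLDL 3, mouse 1 and mouse 3.

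The same comparison was made in DKO macrophages. There 122 genes were called, 99 higher with GW3965 (0.594%) and 23 lower (0.138%). Of the 122, 85 (69.7%) were also called in the same direction in LXR-positive cells, which is 20.6% of the 413. A gene not called in DKO cells is not thereby shown to be without a difference. Of the 202 genes called higher in LXR-positive cells, 180 had the same sign in DKO cells (DKO median 0.47). Of the 211 called lower, 194 did (DKO median -0.47). The same-sign share over all genes tested is not given here, so these counts have no background beside them. Each single DKO library of these groups, left out, changed the 122 calls: 32 without GW3965 1, 50 without GW3965 2, 34 without GW3965 3, 31 without AcLDL 1, 46 without AcLDL 2 and 40 without AcLDL 3. Without DKO mouse 1, 2 or 3 it was 29, 31 or 23, and without the mouse block it was 21. Stromal markers moved in DKO cells: 3 of 7 tested were higher with GW3965, and their summed level was 1574 to 8169.8 normalized counts with GW3965 against 274 to 4628 with AcLDL; their part in the DKO results was not tested. In the LXR-positive cells these sums were 246 to 826 and 161 to 1199, with no member called by limma, edgeR or DESeq2 and 0 of 7 at an unadjusted p under 0.05.

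Cholesterol synthesis and SREBP control differed between the agents in cells labelled DKO too. In DKO cells 13 of 22 cholesterol enzymes were higher with GW3965 than with AcLDL (median 1.29, against 1.19 in LXR-positive cells). The place of vehicle differed between the genotypes. The mevalonate list summed to 3943 to 5447 normalized counts with GW3965 and 4203 to 5358 with vehicle in DKO cells. In LXR-positive cells it was 4614 to 4815 and 2732 to 3332. For the sterol list these were 5203 to 7305 and 5392 to 7357, against 5857 to 6320 and 3901 to 4345. Insig1 had 1043, 1313 and 1044 normalized counts with GW3965, 269.5, 256 and 317 with AcLDL and 1150.3, 1455 and 1147 with vehicle in DKO cells, a difference of 2.01 ± 0.12 (adjusted p = 1.8e-06). Fdps had 233, 386 and 322 with GW3965 and 59, 65.5 and 72.2 with AcLDL, a difference of 2.22 ± 0.14. None of the 22 had a called genotype difference by limma, edgeR or DESeq2, and 0 of 22 were under an unadjusted p of 0.05; the median genotype difference was 0.03, and it was 0.39 ± 0.20 for Fdps and 0.45 ± 0.17 for Insig1 (adjusted p = 0.78). Plin2 and Angptl4 were also lower with GW3965 in DKO cells, with differences of -0.94 ± 0.08 and -1.88 ± 0.17, with genotype differences of 0.05 ± 0.12 and 0.04 ± 0.24. Marco differed by 2.80 ± 0.30 in DKO cells, where its AcLDL libraries held 0, 0.779 and 9.66 normalized counts.

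Genotype differences were called for 8 genes, all with a larger GW3965 minus AcLDL difference in LXR-positive cells (0.048% of genes tested): Scd1, Fads2, Fasn, Srebf1, Abcg1, Abca1, Mylip and Acsl4. In the other direction limma and edgeR called 0 genes and DESeq2 12, with 533 at an unadjusted p under 0.05, against 415 in the first direction. The count of 8 was 5 without LXR-positive GW3965 1, LXR-positive AcLDL 3, DKO GW3965 2 or LXR-positive mouse 1, and 1 without DKO mouse 2. Abca1 had 16446, 17074 and 14916 normalized counts with GW3965, 15807, 17787 and 14851 with AcLDL and 14347, 16732 and 14223 with vehicle in DKO cells, a GW3965 minus AcLDL difference of 0.00 ± 0.07, and the genotype difference was 0.97 ± 0.10 (adjusted p = 0.0024). Abcg1 had 3182, 2983 and 2827 with GW3965 and 4173, 3295 and 3519 with AcLDL, a difference of -0.28 ± 0.09, and a genotype difference of 1.27 ± 0.13 (adjusted p = 0.0024). The DKO groups overlapped for Abca1, and for Abcg1 the GW3965 libraries were below the AcLDL libraries; in DKO vehicle cells every Abca1 value was above those of LXR-positive vehicle cells.

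Several lipogenic genes were also called higher with GW3965 in DKO cells. Scd1 had 114, 191 and 53.2 normalized counts with GW3965, 43.6, 84.2 and 7.09 with AcLDL and 111, 164 and 32.5 with vehicle in DKO cells, a difference of 1.76 ± 0.29 against 5.14 in LXR-positive cells. Srebf1 differed by 0.69 ± 0.13 (adjusted p = 0.035) and Fasn by 0.88 ± 0.18 (adjusted p = 0.049) in DKO cells. In all 3 the GW3965 and vehicle libraries overlapped in DKO cells, whereas in LXR-positive cells GW3965 stood far above vehicle. Scd2 had 1509, 2762 and 1688 with GW3965, 201, 436 and 147 with AcLDL and 1618, 2646 and 1344 with vehicle, a difference of 3.03 ± 0.14; its genotype difference of 1.17 ± 0.20 was not called (adjusted p = 0.11).

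**Figure D5:**
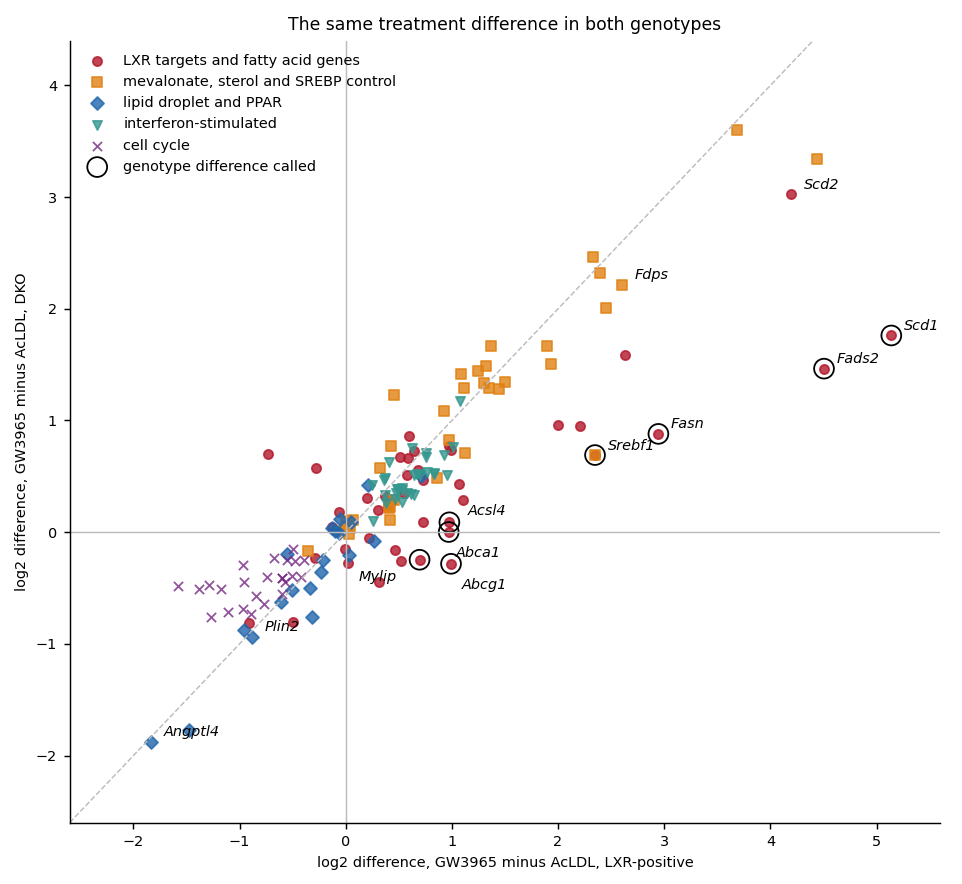
Each point is a listed gene, with its GW3965 minus AcLDL log2 difference in LXR-positive cells on the horizontal axis and in DKO cells on the vertical axis; the dashed line marks equal differences, and black rings mark the 8 genes with a called genotype difference. Mevalonate and sterol enzymes (squares) and lipid droplet genes (diamonds) lie near the dashed line. SREBP control genes, also squares, spread more widely, with genotype differences of -0.78 to 1.66, the largest being the ringed Srebf1. The ringed genes lie below the line, with Abca1, Abcg1, Mylip and Acsl4 near 0 on the vertical axis.

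Interferon-stimulated and cell cycle genes had the same sign in both genotypes. In DKO cells 30 of 30 interferon-stimulated genes lay above 0 (median 0.48, 1 called) and 24 of 24 cell cycle genes below 0 (median -0.45, 3 called). No gene of either list had a called genotype difference by limma, edgeR or DESeq2. Under an unadjusted p of 0.05 were 0 of 30 and 6 of 24, these 6 all lower. Over all genes 948 of 16663 were, 533 of them lower. The genotype difference was below 0 in 24 of 24 cell cycle genes (median -0.29), so their difference was larger in size in LXR-positive cells. It was above 0 in 24 of 30 interferon-stimulated genes (median 0.14). Several lists gave no call in LXR-positive cells by limma: MHC class II (0 of 8, 1 under an unadjusted p of 0.05, and none by edgeR or DESeq2) and glycolysis with hypoxia (0 of 20, 9 under an unadjusted p of 0.05, none by edgeR and 2 by DESeq2). Over all genes 2505 of 16663 were under that unadjusted p in LXR-positive cells. Other single calls were Herpud1 of the unfolded protein response (0.68), Osgin1 of the NRF2 targets (0.63) and Tkt of the pentose phosphate pathway (0.43), all higher with GW3965 and all lost without the mouse block and in at least 6 settings with a library or mouse left out.

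Few markers of other cells were called. Of 9 neutrophil and granulocyte precursor markers tested, 2 were higher with GW3965, Ltf (0.70) and Ngp (0.64), with summed levels of 3582 to 6309.6 normalized counts with GW3965 against 3053 to 3538 with AcLDL; both calls were lost without the mouse block and without GW3965 1, GW3965 3, AcLDL 1, AcLDL 3, vehicle 1, mouse 1 or mouse 3, and that of Ngp also without AcLDL 2. Cd4 was called among lymphocyte markers (0.81; lost without the mouse block and in 8 settings with a library or mouse left out), while Cd3e, Cd79a and Nkg7 did not reach the level needed for testing. Pf4, listed with megakaryocyte genes, was lower with GW3965, with 207, 285 and 299 normalized counts against 537, 534 and 482 with AcLDL (-0.99 ± 0.16; lost without GW3965 1, AcLDL 1 or mouse 1, adjusted p 0.0059 to 0.089), while the hemoglobin genes and Gp9 were below the level for testing. Macrophage, dendritic cell, stromal, mast cell and osteoclast markers gave 0 calls by limma and edgeR; DESeq2 called 1 macrophage marker, and 6 macrophage, 1 dendritic cell, 2 osteoclast and 0 stromal and mast cell markers were under an unadjusted p of 0.05. The part of other cells in the results was not tested. In bulk RNA, fewer cells of a type and less RNA per cell cannot be told apart.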

How the data were processed

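RNA from bone-marrow-derived macrophages was sequenced in 24 libraries, 3 mice per genotype and 4 treatments; kdo2-lipid A libraries were not used except in 1 alternative. Per the submitters' processing notes, kallisto and DESeq2 were used with build GRCm38; neither their versions nor the strand setting are stated there. The authors deposited normalized counts, a signal value that is each gene's reads over the library's size factor: 100% of values were whole reads within 0.01 once multiplied back. The vehicle columns of the deposited tables were identical (12 of 12), so 1 normalization covers them. Of 47372 genes, 12616 were at 0 throughout.

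Genes with at least 10 normalized counts in 3 or more of 18 libraries (GW3965, AcLDL and vehicle, both genotypes) were tested: 16663 genes. limma 3.58.1 (R 4.3.3, trend) was fitted to log2(value + 1) with group and mouse (replicate block, 6 mice), with 8 residual degrees of freedom and Benjamini-Hochberg adjustment over all genes tested. Fold changes on this scale understate those of low genes. The block was used because numbers were taken to mark mice. Deviations of same-numbered GW3965 and AcLDL libraries correlated across genes at 0.107, 0.335 and 0.312 in LXR-positive and 0.166, 0.568 and 0.564 in DKO cells. Libraries of different numbers gave -0.309 to 0.005 in LXR-positive and -0.5475 to 0.106 in DKO cells. Deviations were taken from the mean of 3 libraries, so these values depend on each other. The genotype difference is the interaction of that fit. The limma fit was tried on simulated counts in which only LXR-positive GW3965 libraries were changed, and only the LXR-positive comparison was read. The simulated counts held no mouse effect, so they could not check the mouse block. The DKO comparison and the genotype difference were not checked in this way. Alternatives were no block, pseudocount 8, no filter, quantile normalization, edgeR 4.0.16 and DESeq2 1.42.0 on the recovered reads, reads thinned to 6448579, other library sets, and each library or mouse left out; vehicle left out was added after seeing the data.

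The comparison and the 27 gene lists (377 genes, 338 tested) were chosen with earlier results of these data known. Genes named are 17 set genes, up to 6 called genes of each list by smallest p (where none, the smallest p), the 10 largest called differences each way outside the lists (mean of at least 50, same sign in every mouse, no predicted genes), and the 5 largest called genotype differences. Other names were chosen after their values were seen. A few listed genes are counted but not reported by name here. Coordinates are GENCODE M21 (GRCm38), which holds 46648 of the gene IDs; exon overlaps come from it, and since the counting strand is not given, reads of overlapping genes may not be told apart.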

Additional observations from a re-analysis of the deposited data

Results flagged for a closer look

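For 8 genes the GW3965 minus AcLDL difference was itself different between LXR-positive and DKO cells by the interaction term of the limma fit. In log2 units, LXR-positive minus DKO, it was 3.38 for Scd1 (adjusted p = 0.0078), 3.04 for Fads2 (0.026), 2.07 for Fasn (0.0078), 1.66 for Srebf1 (0.0043), 1.27 for Abcg1 (0.0024), 0.97 for Abca1 (0.0024), 0.94 for Mylip (0.02) and 0.89 for Acsl4 (0.012). Abcg1 kept its call under every alternative run, with adjusted p of 0.0011 to 0.038 over the left-out libraries and mice. Abca1 and Srebf1 lost it only without DKO mouse 2 (0.054 each). Fasn lost it without LXR-positive GW3965 1 (0.051), LXR-positive mouse 1 (0.095), LXR-positive mouse 2 (0.051) or DKO mouse 2 (0.067). Scd1 lost it without LXR-positive mouse 3 (0.067), DKO mouse 1 (0.084) or DKO mouse 2 (0.1), with all 24 libraries (0.16) and without the mouse block (1.0). Acsl4 lost it in 10 left-out settings (up to 0.14), Mylip in 13 (up to 0.14) and Fads2 in 16 (up to 0.29), each without DKO mouse 1 among others; Mylip and Fads2 lost it also without the mouse block (0.12 and 0.28), and Fads2 with all 24 libraries (0.12). The value kept its sign in each of these.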

How the results depend on the processing

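In LXR-positive cells 202 genes were higher and 211 lower with GW3965 than with AcLDL. Without the mouse (replicate) block 69 were higher and 24 lower, with the 9 LXR-positive libraries alone 96 and 61, and with the 6 libraries compared 111 and 67; 48.9% of the reported calls were higher. Reads thinned to the smallest library left 133 higher; 137 were lower without the filter, 137 with edgeR and 115 with all 24 libraries. Leaving out a library gave 80 to 263 higher and 36 to 331 lower, and leaving out mouse 1, 2 or 3 gave 62, 247 or 75 higher and 21, 321 or 71 lower. The 122 DKO calls became 21 without the block, 71 without the filter, 401 with DESeq2, 79 thinned and 70 with all 24 libraries (31 to 50 with a library left out, and 29, 31 or 23 without mouse 1, 2 or 3). The 8 genotype differences became 5 without the block and 35 with DESeq2 (1 to 10). GW3965 against vehicle, 105 calls, gave 59 without the block, 187 with DESeq2, 61 with 9 libraries and 28 with 6 (53 to 148); AcLDL against vehicle, 451, gave 56, 752, 211 and 80 (129 to 567 with a library left out, and 80, 562 or 144 without mouse 1, 2 or 3). The causes were not tested. Of 86 named called genes, 36 kept their call in all 22 settings and none changed sign; the block decided 44. Uncalled log2 differences changed sign for Nr1h2 without AcLDL 3 (-0.0099 to 0.29 over the libraries; -0.043 without mouse 3), Nr1h3 without AcLDL 2 (-0.19 to 0.14; -0.13 without mouse 2) and Prg2 without AcLDL 3 (-0.17 to 0.59; -0.18 without mouse 3). GW3965 1 and 2 were shallower than every AcLDL library and GW3965 3 deeper than all 3, and depth limits low genes most.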
